A study of Arabidopsis thaliana with 8 samples.

Results

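The gibberellin signalling genes described here are the 5 DELLA genes of Arabidopsis, *RGA* (AT2G01570), *GAI* (AT1G14920), *RGL1* (AT1G66350), *RGL2* (AT3G03450) and *RGL3* (AT5G17490), and the 3 gibberellin receptor genes, *GID1A* (AT3G05120), *GID1B* (AT3G63010) and *GID1C* (AT5G27320). They were chosen by gene identifier as the members of both families and are 8 of the 25738 genes listed in any library. RNA was sequenced from flower buds of stages 9 to 13, taken from the primary inflorescence of soil-grown plants in long days, with 2 libraries for each of 4 genotypes. The genotypes were wild-type Col-0 and the T-DNA insertion mutants *elf6*, *jmj13* and *ref6*, all in the Col-0 background and each lacking or disrupting 1 demethylase of the repressive histone mark H3K27me3. The study's methods give a single insertion line per mutant, and the alleles named for *elf6* differ between the sources, so the allele sequenced is uncertain. The *ref6* insertion is described in the study as disrupting the zinc fingers and leaving the catalytic part of the protein in place. The purpose of the series was to follow how these demethylases affect floral organ growth and self-fertility, in which *elf6* and *jmj13* were described as opposite, so *elf6* was also compared directly with *jmj13*.

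Gibberellin is a growth hormone that drives stem and stamen elongation, anther development and petal growth. DELLA proteins are nuclear growth repressors of the GRAS family. When gibberellin is bound by a GID1 receptor, the receptor binds the region of the DELLA motif near the start of the repressor. The complex is then passed to an F-box protein that marks the DELLA protein for degradation. RGA and GAI are known as repressors of stem growth, RGA, RGL1 and RGL2 act together in stamens and petals, RGL2 is best known for holding back seed germination, and RGL3 is linked to jasmonate responses. A transcript level says nothing of the amount of DELLA protein, which is set largely by this degradation.

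The receptor acts through the motif that names the family, so the stretch around it is shown for each DELLA gene, read from the TAIR10.1 assembly of RefSeq. Each stretch has 45 bases, and the capitals mark the codons of the motif.
RGA, chr2:257186-257230, minus strand: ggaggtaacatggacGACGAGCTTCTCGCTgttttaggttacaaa
GAI, chr1:5149480-5149524, plus strand: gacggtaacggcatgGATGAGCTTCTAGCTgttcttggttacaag
RGL1, chr1:24748405-24748449, plus strand: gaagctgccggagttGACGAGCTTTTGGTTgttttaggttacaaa
RGL2, chr3:821121-821165, minus strand: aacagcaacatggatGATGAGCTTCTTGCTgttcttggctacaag
RGL3, chr5:5765759-5765803, minus strand: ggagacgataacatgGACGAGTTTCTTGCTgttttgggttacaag
The capitals of *RGA*, *GAI* and *RGL2* encode the motif exactly, whereas those of *RGL1* and *RGL3* each differ from it in 1 residue. Pairs of DELLA stretches differed at between 11 (*GAI* and *RGL2*) and 19 (*RGL1* and *RGL2*) of the 45 bases.

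For the receptors, the stretch around the His-Gly-Gly motif is shown, because GID1 proteins belong to the hormone-sensitive lipase family and this motif marks the fold that became the gibberellin pocket. The capitals mark the codons of that motif and the residues after it.
GID1A, chr3:1431571-1431615, plus strand: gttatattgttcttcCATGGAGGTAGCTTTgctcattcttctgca
GID1B, chr3:23290243-23290287, plus strand: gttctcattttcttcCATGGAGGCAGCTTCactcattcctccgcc
GID1C, chr5:9630027-9630071, plus strand: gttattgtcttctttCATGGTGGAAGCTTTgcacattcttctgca
*GID1A* and *GID1C* differed at 7 of the 45 bases, and *GID1B* and *GID1C* at 13. Over the whole coding sequence *GID1A* and *GID1C* were 83.8% identical, and *GID1B* was 70.5% and 71.4% identical to them. Among the DELLA genes *RGA* and *GAI* were the closest pair at 82.4%, followed by *RGL2* and *RGL3* at 77.4%, and the other pairs lay between 67.2% and 70.4%.

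The 5 DELLA genes are each annotated with 1 exon: *RGA* at chr2:255247-257568, *GAI* at chr1:5148982-5151415, *RGL1* at chr1:24748105-24750186, *RGL2* at chr3:819337-821652 and *RGL3* at chr5:5763989-5766246. The receptor genes each have 2 exons: *GID1A* at chr3:1430363-1432844, *GID1B* at chr3:23289243-23291486 and *GID1C* at chr5:9628990-9631291. No annotated gene overlapped any of the 8, and of all runs of 50 bases in their exons 0 occurred elsewhere in the genome. All 64 of their expected counts were whole numbers, between 71 and 2181, and none was at 0.

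Library totals lay between 11373306 and 12048319 expected counts. Replicate 1 of Col-0 and replicate 1 of *ref6* stood apart from the other libraries: their 50 most abundant genes took 29.3% and 30.5% of the counts, against 18.4% to 21.4% elsewhere, and their TMM factors, which correct for such composition, were 0.739 and 0.742 against 1.01 to 1.22. The *ELF6* transcript total was low in *elf6*, at 18 and 28 counts against 68 and 88 in Col-0 (log2 fold change -2.06 ± 0.324 SE, edgeR adjusted p = 0.0525). The totals of *JMJ13* (45 and 45 counts in *jmj13*, 22 and 51 in Col-0) and *REF6* (130 and 119 in *ref6*, 90 and 103 in Col-0) were not low in their mutants, so they do not check these labels. Tapetum, late pollen and carpel markers of bud tissue were detected in every library, and the genes at 0 were the early tapetum gene *DYT1* in 5 libraries and the pollen gene *MYB97* in 1. Nothing in the sources says whether the 2 libraries of a genotype came from separate plants, so p-values cover only the spread between these libraries.

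The DELLA transcripts were far more abundant than those of the receptors, with *RGL3* the exception. Levels are compared between genes as TPM (FPKM, which is scaled by gene length, rescaled to the same total in every library, so that it reads as transcripts per 1000000). Mean TPM over the 8 libraries was 84.7 for *RGL1*, 77.4 for *RGA*, 46.9 for *RGL2*, 39.3 for *GAI*, 9.81 for *GID1A*, 6.74 for *GID1C*, 6.37 for *RGL3* and 5.22 for *GID1B*. *RGL1* had a higher mean than 93.4% of listed genes, and *GID1B* a higher mean than 53.5%. By mean TPM *RGL1* was first and *RGA* second in every genotype, but the ranges of these neighbours overlapped in all but *jmj13*. *GAI* and *RGL2* changed places: *RGL2* ranked above *GAI* in Col-0, *jmj13* and *ref6*, with the libraries apart in *jmj13* alone, and below *GAI* in *elf6*, where the libraries were again apart. *GID1A* was the most abundant receptor transcript in every genotype, with its range clear of both other receptors in *elf6*, *jmj13* and *ref6* and overlapping them in Col-0.

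**Figure D1:**
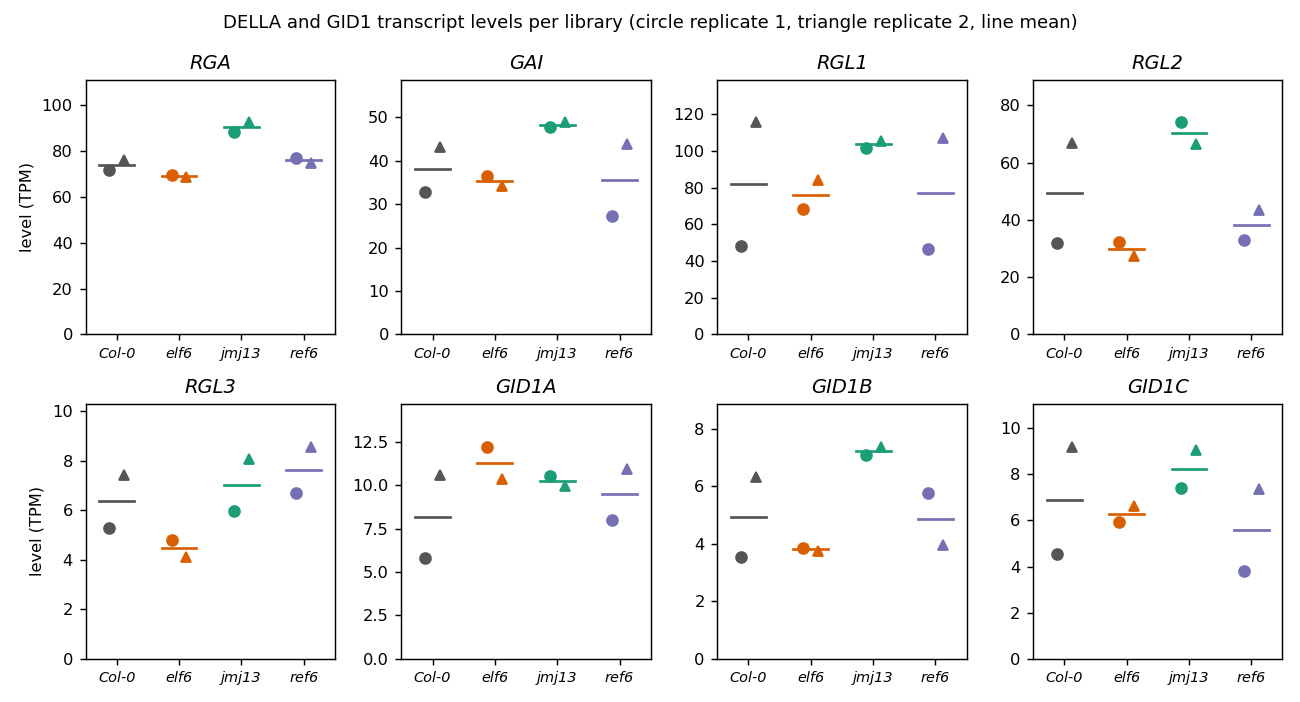
Level of each of the 8 genes in TPM (y axis, starting at 0) in the 2 libraries of each genotype (x axis); circles are replicate 1, triangles replicate 2 and lines the mean. In *RGL1* and *GID1C* replicate 1 of Col-0 and of *ref6* lie lowest of all libraries, and in *RGL2* both *elf6* libraries lie close to replicate 1 of Col-0 and of *ref6*.

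*RGA*, a main repressor of stem and stamen growth, had the steadiest level per length. Its TPM was 71.8 and 76.0 in Col-0, 69.7 and 68.5 in *elf6*, 88.4 and 92.6 in *jmj13*, with 77.0 and 75.0 in *ref6*. On this scale both *jmj13* libraries were above, and both *elf6* libraries below, every Col-0 library. TMM-scaled counts per 1000000 (TMM CPM), the scale of the edgeR test, divide by the composition factor and gave another picture: 219 and 155 in Col-0, 133 and 131 in *elf6*, 149 and 163 in *jmj13*, with 225 and 143 in *ref6*. There the 2 libraries that stood apart were the highest and *jmj13* overlapped Col-0, so the direction of *RGA* in *jmj13* depends on the scaling.

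*GAI*, the closest relative of *RGA*, stood at 32.8 and 43.2 TPM in Col-0, 36.4 and 34.1 in *elf6*, 47.7 and 48.8 in *jmj13*, with 27.2 and 43.9 in *ref6*. The *jmj13* libraries were the highest per length. In TMM CPM the values were 92.4 and 81.1 in Col-0, 64.0 and 60.0 in *elf6*, 74.4 and 79.4 in *jmj13*, with 73.3 and 77.2 in *ref6*, and all mutant libraries lay below both Col-0 libraries.

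*RGL1*, a DELLA gene known mainly from flowers, varied widely between the replicates of Col-0 and of *ref6*. Its TPM was 48.4 and 116 in Col-0, 68.3 and 84.2 in *elf6*, 102 and 105 in *jmj13*, with 46.8 and 107 in *ref6*. The 2 low values belong to the libraries that stood apart, and both genotypes concerned spanned a more than 2-fold range (ratios of 2.39 in Col-0 and 2.28 in *ref6*). In TMM CPM the gap narrowed to 118 and 188 in Col-0 and 109 and 163 in *ref6*, with 104 and 129 in *elf6* and 137 and 148 in *jmj13*, and *elf6* and *jmj13* both overlapped Col-0.

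*RGL2*, the main repressor of germination, showed the largest difference among the 8 genes. It had 761 and 1413 expected counts in Col-0, 695 and 587 in *elf6*, 1564 and 1383 in *jmj13*, with 767 and 959 in *ref6*. In TMM CPM this was 87.0 and 122 in Col-0, 54.9 and 46.9 in *elf6*, 112 and 105 in *jmj13*, with 86.7 and 74.4 in *ref6*. The *elf6* libraries were the lowest of the 8, and *jmj13* overlapped Col-0. In TPM, without composition scaling, the values were 31.8 and 66.8 in Col-0, 32.1 and 27.4 in *elf6*, 74.1 and 66.3 in *jmj13*, with 33.1 and 43.5 in *ref6*, so that *elf6* overlapped replicate 1 of Col-0 but remained below both *jmj13* libraries.

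*RGL3*, the least abundant DELLA transcript, had 123 and 153 counts in Col-0, 101 and 86 in *elf6*, 123 and 164 in *jmj13*, with 151 and 184 in *ref6*. In TMM CPM it stood at 14.1 and 13.2 in Col-0, 7.98 and 6.87 in *elf6*, 8.83 and 12.4 in *jmj13*, with 17.1 and 14.3 in *ref6*. The *elf6* libraries were the lowest and the *ref6* libraries the highest. In TPM the *elf6* libraries (4.80 and 4.12) were again the lowest, but the *ref6* libraries (6.69 and 8.58) overlapped those of Col-0 (5.29 and 7.44) and *jmj13* (5.99 and 8.09).

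Among the receptors, *GID1A* was the only member with a positive fitted change in *elf6*. It stood at 13.3 and 16.2 TMM CPM in Col-0, 17.5 and 14.9 in *elf6*, 13.4 and 13.2 in *jmj13*, with 17.6 and 15.7 in *ref6*. The genotypes overlapped Col-0 throughout, and *elf6* was above *jmj13*. In TPM its lowest library was replicate 1 of Col-0 (5.79), with all others between 8.03 and 12.2, and there *elf6* (12.2 and 10.4) overlapped *jmj13* (10.6 and 9.96).

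*GID1B*, the receptor reported to bind gibberellin most tightly, had 76 and 120 counts in Col-0, 75 and 72 in *elf6*, 134 and 138 in *jmj13*, with 120 and 78 in *ref6*. In TMM CPM these became 8.69 and 10.4 in Col-0, 5.92 and 5.75 in *elf6*, 9.62 and 10.5 in *jmj13*, with 13.6 and 6.05 in *ref6*. The *elf6* libraries were the lowest, and the *ref6* libraries disagreed with each other.

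*GID1C*, the closest relative of *GID1A*, had 87 and 156 counts in Col-0, 103 and 114 in *elf6*, 125 and 151 in *jmj13*, with 71 and 130 in *ref6*. In TMM CPM it stood at 9.95 and 13.5 in Col-0, 8.13 and 9.11 in *elf6*, 8.97 and 11.4 in *jmj13*, with 8.03 and 10.09 in *ref6*. Only *elf6* lay below both Col-0 libraries, by less than the gap between the latter.

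In *elf6* against Col-0 no member passed the test, although 7 of 8 had a lower fitted level. *RGL2* was lower by a log2 fold change of -1.04 ± 0.265 (SE, 2 libraries each), with a Benjamini-Hochberg adjusted p of 0.165 in edgeR's quasi-likelihood test over the 19939 genes tested. *RGL3* had -0.88 ± 0.272 (edgeR adjusted p = 0.242), and *GID1B* had -0.71 ± 0.365 (edgeR adjusted p = 0.463). The others were *RGA* at -0.50, *GAI* at -0.48, *GID1C* at -0.44, *RGL1* at -0.40 and *GID1A* at 0.13, with edgeR adjusted p between 0.433 and 0.856. Called here means an adjusted p under 0.05 and at least a 2-fold change: 0 of 8 members were called, against 0.12% of all tested genes. At an unadjusted p under 0.05 there were 2 of 8, *RGL2* and *RGL3*, against 12.4% of all tested genes.

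By overlap of the libraries in TMM CPM, 6 of 8 members (all but *RGL1* and *GID1A*) were lower in both *elf6* libraries than in both Col-0 libraries, where 21.0% of all tested genes were, and 0 were higher, where 23.7% of all tested genes were. The median log2 fold change of the 8 was -0.49, against 0.03 for all tested genes. On the TPM scale the count of lower members fell to 2, *RGA* and *RGL3*, where 9.4% of all tested genes were lower, and 0 were higher, where 40.7% of all tested genes were. Under scaling by library size alone the median over all tested genes went from 0.03 to 0.34 in this comparison, so these differences are relative to TMM scaling. The same 7 members, all but *GID1A*, were below the median of all genes under both scalings. A change of scaling moves all genes of a comparison by a like amount, so this position could hardly change and is no further check.

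The call for *RGL2* depended on the test. DESeq2 called it lower in *elf6* than in Col-0 (log2 fold change -1.06, DESeq2 adjusted p = 0.0156), as it did 1.12% of the genes it tested. With the 2 libraries that stood apart left out, which leaves 1 Col-0 library whose spread is assumed to be like that of the other genotypes, edgeR also called it (-1.26, edgeR adjusted p = 0.00724), with 0.739% of tested genes called lower. Over all 12 alternative settings the log2 fold change ran from -1.26 to -0.67 and the adjusted p from 0.00724 to 0.791.

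**Figure D2:**
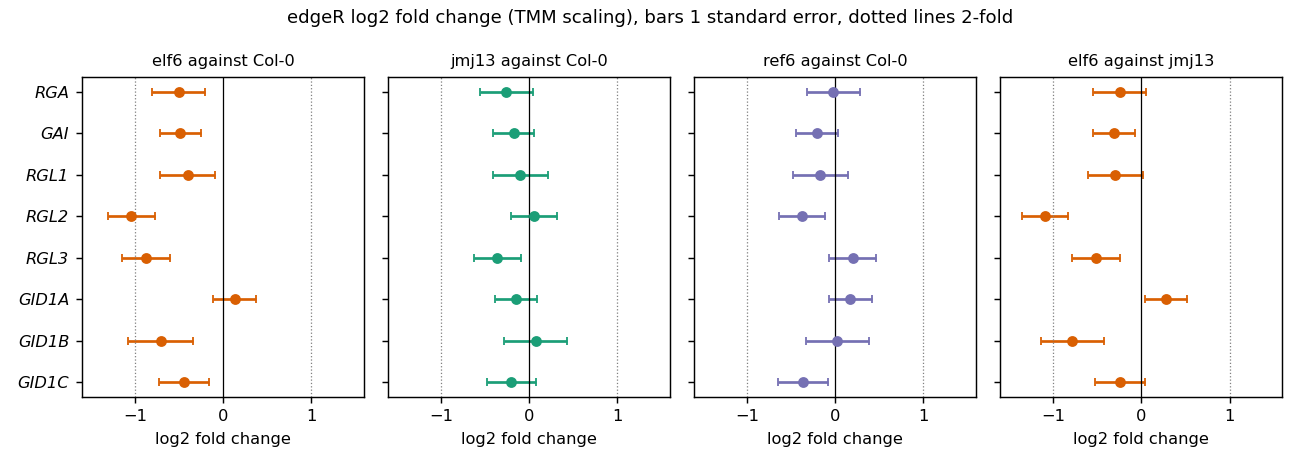
edgeR log2 fold change (x axis) of the 8 genes (y axis) in the 4 comparisons; points are the fitted value, bars 1 standard error and dotted lines a 2-fold change. *RGL2* in *elf6* lies at -1.04 against Col-0 and -1.09 against *jmj13*, and every *jmj13* and *ref6* value against Col-0 lies between -0.38 and 0.20.

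In *jmj13* against Col-0 the members stayed close to the wild type. The largest log2 fold change was that of *RGL3*, -0.36, followed by *RGA* at -0.26, *GID1C* at -0.20, *GAI* at -0.17, *GID1A* at -0.15, *RGL1* at -0.10, *GID1B* at 0.07 and *RGL2* at 0.05, with edgeR adjusted p between 0.588 and 0.944. In this comparison 0 of 8 members were called (0% of all tested genes), and 0 had an unadjusted p under 0.05 (11.2% of all tested genes). The libraries did not overlap in 2 members that were lower, *GAI* and *RGL3* (21.5% of all tested genes), and in 0 that were higher (24.7%). The sign rests on the scaling: by library size alone the median of all genes moved from 0.04 to 0.48 and all 8 members had a positive log2 fold change. Relative to the median of all genes, 6 of the 8 were below it under TMM and 7 under library size alone, a position that scaling moves little. In TPM 3 members, *RGA*, *GAI* and *GID1B*, were higher in both *jmj13* libraries, as 54.5% of all tested genes were, and 0 were lower (6.47%). The *jmj13* replicates were close to each other in TPM, with ratios of the higher to the lower library between 1.02 and 1.35 for the 8 genes.

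In *ref6* against Col-0 the log2 fold changes were -0.38 for *RGL2*, -0.37 for *GID1C*, -0.21 for *GAI*, -0.17 for *RGL1*, -0.02 for *RGA*, 0.02 for *GID1B*, 0.17 for *GID1A* and 0.20 for *RGL3*, all with an edgeR adjusted p of 0.999. No member was called (0.00502% of all tested genes) or had an unadjusted p under 0.05 (4.67%). *RGL3* was higher in both *ref6* libraries (13.6% of all tested genes were) and *GAI* and *RGL2* were lower (12.5%), whereas in TPM all 8 members overlapped Col-0 (8.87% of all tested genes were higher and 7.34% lower). The *ref6* libraries of *GID1B* lay on either side of both Col-0 libraries, and its value went from 0.02 to -0.78 on the log2 scale when both libraries that stood apart were left out.

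The direct comparison of *elf6* with *jmj13* sets no library that stood apart against another, and those libraries enter only its shared estimate of spread. The SD of the log2 ratio between replicates over all tested genes was 0.49 in *elf6* and 0.48 in *jmj13*, against 0.787 in Col-0 and 0.784 in *ref6*. *RGL2* was lower in *elf6* by a log2 fold change of -1.09 ± 0.265 (SE, 2 libraries each, edgeR adjusted p = 0.112), and *GID1B* by -0.78 ± 0.361 (edgeR adjusted p = 0.592). *RGL3* had -0.52, *GAI* -0.31, *RGL1* -0.30, *RGA* -0.24, *GID1C* -0.24 and *GID1A* 0.28, with edgeR adjusted p of up to 0.968. None of the 8 was called, against 0.772% of all tested genes, and 1, *RGL2*, had an unadjusted p under 0.05, against 8.78%. In TMM CPM 6 members were lower in both *elf6* libraries (24.6% of all tested genes were), namely the 5 DELLA genes and *GID1B*, and 1, *GID1A*, was higher (23.5%). In TPM 7 of 8, all but *GID1A*, were lower, where 37.7% of all tested genes were, and 0 were higher (15.4%). The median log2 fold change of the members was -0.30, against -0.03 for all tested genes.

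Here too *RGL2* was called in some fits. DESeq2 gave -1.08 with an adjusted p of 0.0114 (0.194% of its tested genes were called lower). edgeR on only the 4 libraries compared gave -1.09 with an adjusted p of 0.00214 (0.534%), and edgeR with both libraries that stood apart left out gave -1.07 with an adjusted p of 0.00257 (0.485%). Over the 12 alternatives the log2 fold change lay between -1.22 and -0.98 and the adjusted p between 0.00214 and 0.947. The comparisons of *elf6* with Col-0 and with *jmj13* share the *elf6* libraries, so they are not separate evidence.

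**Figure D3:**
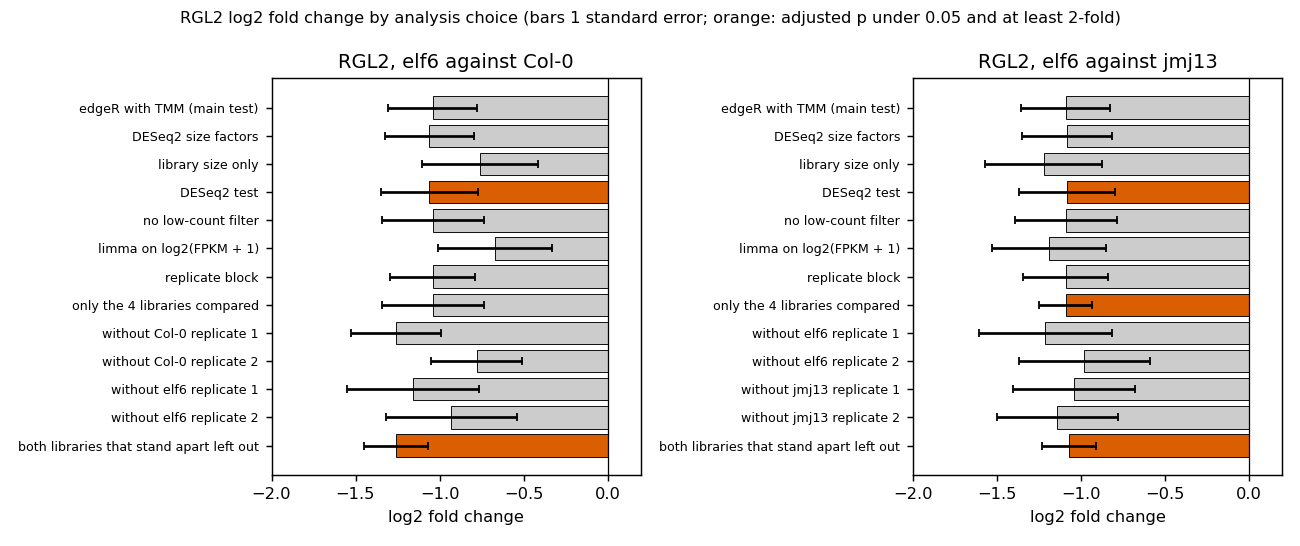
*RGL2* log2 fold change (x axis) under the main edgeR test and 12 alternatives (y axis) for *elf6* against Col-0 (left) and against *jmj13* (right); error bars are 1 standard error and orange bars passed an adjusted p of 0.05 and a 2-fold change. The value stays negative throughout, from -1.26 to -0.67 on the left and from -1.22 to -0.98 on the right, and 2 and 3 of the alternatives passed.

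Ratios of 2 genes within a library do not depend on the scaling between libraries. They were picked after the values had been seen and are given as a description. The ratio of *RGL2* to *RGA* in TPM was 0.443 and 0.879 in Col-0, 0.461 and 0.400 in *elf6*, 0.838 and 0.716 in *jmj13*, with 0.429 and 0.581 in *ref6*. It was thus lower in both *elf6* than in both *jmj13* libraries, but replicate 1 of Col-0 and of *ref6* gave values like those of *elf6*. The ratio of *RGL2* to *GAI* was 0.969 and 1.55 in Col-0, 0.882 and 0.804 in *elf6*, 1.55 and 1.36 in *jmj13*, with 1.22 and 0.993 in *ref6*, and was lowest in *elf6*. The ratio of *GID1A* to *GID1B* was 1.63 and 1.68 in Col-0, 3.16 and 2.76 in *elf6*, 1.49 and 1.35 in *jmj13*, with 1.39 and 2.77 in *ref6*. Both *elf6* libraries were above those of Col-0 and *jmj13*, and replicate 2 of *ref6* reached the same level. The ratio of *RGL1* to *RGA* was 0.675 and 1.52 in Col-0, 0.979 and 1.23 in *elf6*, 1.15 and 1.14 in *jmj13*, with 0.608 and 1.42 in *ref6*, and its 2 lowest values were the libraries that stood apart.

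**Figure D4:**
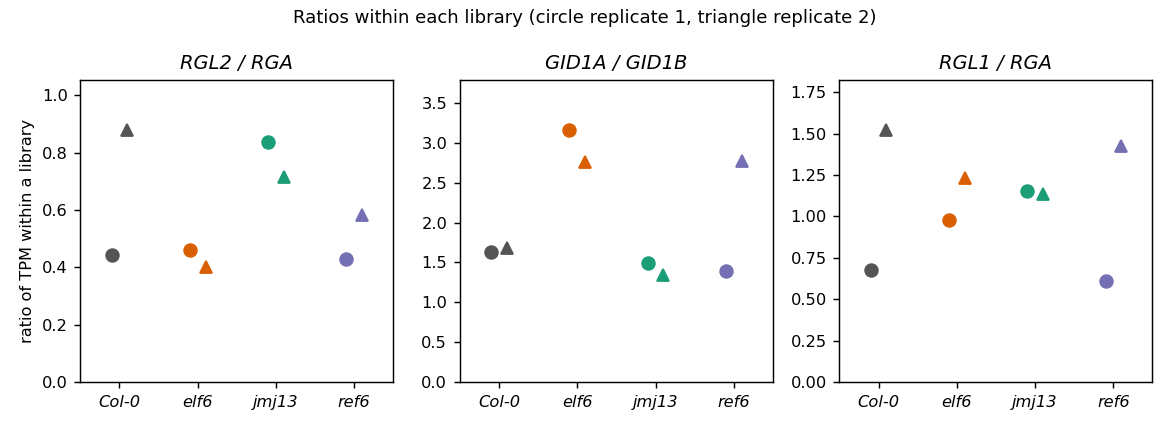
Ratio of the TPM of 2 genes within each library (y axis, starting at 0) by genotype (x axis); circles are replicate 1 and triangles replicate 2. *GID1A* to *GID1B* is at 3.16 and 2.76 in *elf6* against 1.35 to 1.68 in Col-0 and *jmj13*, and *RGL1* to *RGA* is lowest in replicate 1 of Col-0 (0.675) and of *ref6* (0.608).

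The summed DELLA level was 190.2 and 309 TPM in Col-0, 211 and 218 in *elf6*, 318 and 321 in *jmj13*, with 191 and 278 in *ref6*. *jmj13* had the highest sums and *elf6* fell inside the Col-0 range. In TMM CPM the sums were 530.2 and 559 in Col-0, 364 and 373 in *elf6*, 482 and 508 in *jmj13*, with 511 and 471 in *ref6*, with *elf6* the lowest and Col-0 the highest. The summed receptor level was 13.9 and 26.1 TPM in Col-0, 22.1 and 20.8 in *elf6*, 25.0 and 26.4 in *jmj13*, with 17.6 and 22.3 in *ref6*. The ratio of DELLA to receptor TPM was 13.7 and 11.8 in Col-0, 9.58 and 10.5 in *elf6*, 12.7 and 12.2 in *jmj13*, with 10.8 and 12.5 in *ref6*, and both *elf6* libraries were below the other 6. *RGL2* made up 15.2% and 12.5% of the summed DELLA TPM in *elf6* and 23.3% and 20.6% in *jmj13*, with 16.7% and 21.6% in Col-0 and 17.3% and 15.7% in *ref6*. *GID1B* made up 17.6% and 18.1% of the receptor TPM in *elf6* and 28.3% and 28.0% in *jmj13*, with 25.6% and 24.2% in Col-0 and 32.8% and 17.8% in *ref6*. Both shares were lower in the *elf6* libraries than in those of Col-0 and *jmj13*, and the *GID1B* share overlapped *ref6*. With 2 libraries against 2 an exact permutation test of such a value cannot reach p = 0.05, so only the overlap is stated.

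Other gene lists are given beside these members as summed TPM, and not all of them set *elf6* apart from Col-0. The summed level of 8 touch and wounding genes came to 1593 and 1741 TPM in both *elf6* libraries and stood at 311 and 227 in Col-0, 184 and 297 in *jmj13*, with 83.7 and 305 in *ref6*. All 8 had a positive log2 fold change in *elf6* against Col-0, with a median of 1.09 against 0.03 for all tested genes. Of them 1, *WRKY33*, a defence transcription factor gene, was called (3.02, edgeR adjusted p = 0.0319), as 0.12% of all tested genes were. The summed level of 7 late pollen genes was 1173 and 622 TPM in *elf6*, 1623 and 2383 in Col-0, 2060 and 1093 in *jmj13*, with 1032 and 1034 in *ref6*. Both *elf6* libraries were below both Col-0 libraries, and so were both *ref6* libraries. Of the 6 late pollen genes tested, 0 were positive in *elf6* against Col-0, with a median log2 fold change of -1.63. The summed level of 7 tapetum genes was 1033 and 1415 in *elf6*, 1398 and 1241 in Col-0, 802 and 802 in *jmj13*, with 727 and 1237 in *ref6*. For 6 carpel and ovule genes it was 135 and 162 in *elf6*, 84.4 and 161 in Col-0, 144 and 155 in *jmj13*, with 78.7 and 107 in *ref6*. In the tapetum list and in the carpel and ovule list *elf6* overlapped Col-0. There 1 of 6 tested tapetum genes and 4 of 6 carpel and ovule genes were positive in *elf6* against Col-0 (medians -0.25 and 0.17). The part of handling, of bud age or of cell makeup in the member values was not tested. In whole buds a smaller share of the cells that express a gene and less transcript per cell cannot be told apart.

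The wider pathway was described by 43 further genes in 6 lists, of which 36 passed the filter. In *elf6* against Col-0 1 was called higher and 0 lower, in *elf6* against *jmj13* 1 higher and 0 lower, and in *jmj13* and *ref6* against Col-0 0 in either direction. The gene called in both cases was *GA2OX2* (AT1G30040), which encodes a gibberellin 2-oxidase that inactivates the hormone. It had 162 and 242 counts in Col-0, 1006 and 1332 in *elf6*, 173 and 219 in *jmj13*, with 159 and 361 in *ref6*, so both *elf6* libraries were far above the other 6. In TPM it stood at 10.04 and 17.0 in Col-0, 68.9 and 92.2 in *elf6*, 12.2 and 15.6 in *jmj13*, with 10.2 and 24.3 in *ref6*. The log2 fold change was 2.24 ± 0.304 (SE) in *elf6* against Col-0 (edgeR adjusted p = 0.0319) and 2.68 ± 0.308 against *jmj13* (edgeR adjusted p = 0.00927), with -0.44 in *jmj13* (adjusted p = 0.554) and 0.23 in *ref6* (adjusted p = 0.999) against Col-0. Against Col-0 the *GA2OX2* call was lost on scaling by library size alone (2.54, edgeR adjusted p = 0.0781). It was also lost on leaving out any of the 4 libraries compared, where the log2 fold change was 2.01 to 2.43. Such fits leave 1 library in a genotype and test every gene with less power. Against *jmj13* the call was lost in fits of this kind without *elf6* replicate 2 (2.45), without *jmj13* replicate 1 (2.48) and without *jmj13* replicate 2 (2.90).

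Of the 5 gibberellin inactivation genes tested, 4 were positive in *elf6* against Col-0 (median log2 fold change 0.56 against 0.03 for all tested genes), 5 of 5 in *elf6* against *jmj13* (median 1.10 against -0.03) and 1 of 5 in *jmj13* against Col-0 (median -0.42 against 0.04, and 3 of 5 positive when scaled by library size alone). In *ref6* 3 of 5 were positive (median 0.23 against -0.02). These 5 include genes with few counts, and their values ran from -2.74 to 0.04 in *jmj13* and from -1.75 to 0.49 in *ref6* against Col-0. In *elf6* against *jmj13* they ran from 0.03 to 3.3, the highest being above the value of *GA2OX2*. Of the 8 gibberellin synthesis genes tested, 8 were positive in *jmj13* against Col-0, with a median of 0.15 against 0.04, and in *ref6* 6 of 8 (median 0.12 against -0.02). In *elf6* 2 of 8 were positive against Col-0 (median -0.14 against 0.03) and 1 of 8 against *jmj13* (median -0.48 against -0.03). Scaled by library size alone, 5 of 8 were positive in *elf6* against Col-0, and their median of 0.21 lay below the 0.34 of all tested genes. *KAO2*, which carries out the middle steps of synthesis, was the largest in *jmj13* among those with enough counts at 0.58 ± 0.242 SE (edgeR adjusted p = 0.428), and it was -0.48 in *elf6* against *jmj13* (adjusted p = 0.657). Among synthesis genes with a mean of at least 50 counts, *GA3*, the ent-kaurene oxidase gene, was the largest in *elf6* at 0.23 and in *ref6* at 0.39 against Col-0 (adjusted p = 0.767 and 0.999, edgeR). Genes with fewer counts changed more: over all 8 tested the values ran from -0.94 to 0.23 in *elf6* and from -1.61 to 0.82 in *ref6*.

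Of the 4 genes for DELLA turnover and modification 0 were called. *SNE*, an F-box gene that can stand in for the main DELLA F-box gene *SLY1*, stood at -1.04 in *elf6*, -0.93 in *jmj13* and 0.20 in *ref6* against Col-0 (edgeR adjusted p = 0.348, 0.442 and 0.999), and without *ref6* replicate 1 it was -0.56 in *ref6*. *SLY1* itself was the largest of the list in *elf6* against *jmj13*, at 0.25 (edgeR adjusted p = 0.942). The GAMYB gene *MYB101*, which acts downstream of gibberellin in anthers and pollen tubes, stood at -0.24, -0.50 and -0.33 in *elf6*, *jmj13* and *ref6* against Col-0 and 0.26 in *elf6* against *jmj13* (edgeR adjusted p between 0.475 and 0.999).

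Among 10 transcription regulators known to bind DELLA proteins 0 were called in the main edgeR test. *MYB24*, a jasmonate-controlled stamen maturation gene, had 405 and 377 counts in Col-0, 213 and 243 in *elf6*, 130 and 116 in *jmj13*, with 486 and 304 in *ref6*. Both *jmj13* libraries were the lowest, with a log2 fold change of -2.12 ± 0.382 SE against Col-0 (edgeR adjusted p = 0.2), whereas *elf6* stood at -1.12 (adjusted p = 0.262) and *elf6* against *jmj13* at 1.00 (adjusted p = 0.418). DESeq2 gave *MYB24* -2.16 in *jmj13* with an adjusted p of 0.000113, and edgeR with no low-count filter -2.12 with 0.00132. In *jmj13* against Col-0 the main test called 0 of all 19939 tested genes, and the range over the alternatives is given at the end. In a different comparison, *elf6* against Col-0, these 2 settings called 411 and 505 genes over all, where the main test called 24. *ALC*, a fruit dehiscence gene, was the largest of the list in *ref6*, at -0.45 (edgeR adjusted p = 0.999).

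Of 6 gibberellin-induced *GASA* and *PRE* genes tested, 0 of 6 were positive in *jmj13* against Col-0 (median -0.94 against 0.04) and 1 of 6 in *elf6* (median -0.57 against 0.03), and 0 were called. Scaled by library size alone, 2 of 6 were positive in *jmj13*, and all 6 lay below the median of all tested genes, 0.48. *GASA1* had 558 and 441 counts in Col-0 and 177 and 224 in *jmj13* (-1.78 ± 0.468 SE, edgeR adjusted p = 0.311), and 414 and 536 in *elf6*, which against *jmj13* was 1.35 (adjusted p = 0.339). *PRE1*, a small helix-loop-helix growth gene, stood at -1.10 in *elf6* and -0.83 in *ref6* against Col-0 (edgeR adjusted p = 0.253 and 0.999). Without Col-0 replicate 1 the *PRE1* values were -0.40 and -0.13.

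**Figure D5:**
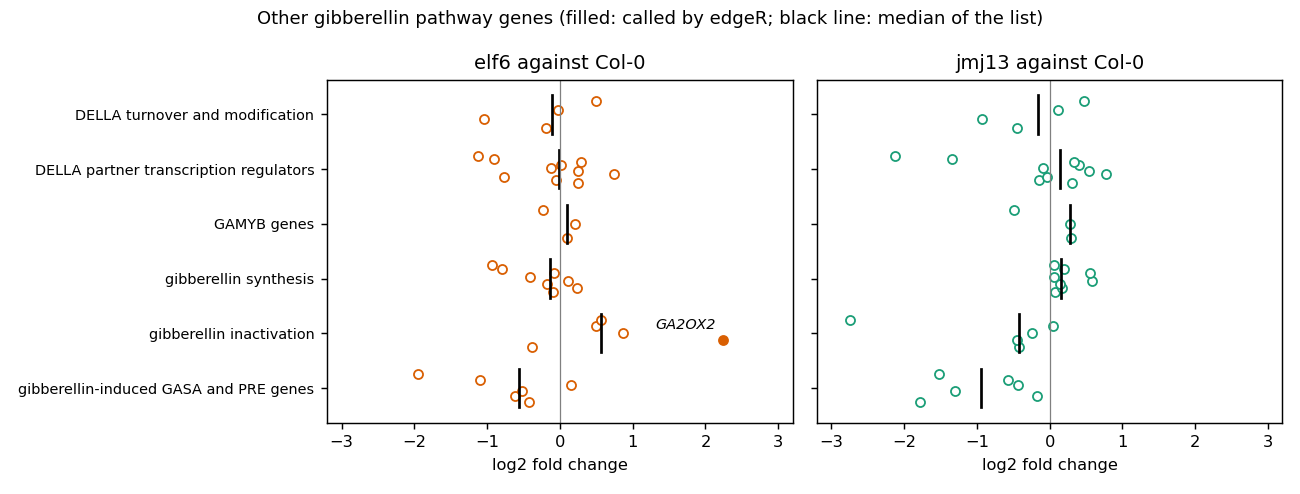
edgeR log2 fold change (x axis) of the 36 other gibberellin pathway genes tested, by list (y axis), in *elf6* (left) and *jmj13* (right) against Col-0; each circle is a gene, filled where called, and black lines are list medians. *GA2OX2* at 2.24 in *elf6* is the only filled circle, and all 6 *GASA* and *PRE* genes lie below 0 in *jmj13*, as 4 of 6 did when scaled by library size alone.

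The gene most like each member over the 8 libraries was found among 14439 genes, by the root mean square difference between mean-centred log2 TMM CPM. This was AT1G48460 for *RGA* (0.039), AT4G34630 for *GAI* (0.056), *NPG1* for *GID1A* (0.061), *FRO7* for *GID1C* (0.073), *EDA40* for *GID1B* (0.076), AT4G18570 for *RGL1* (0.082), *PIRL1* for *RGL3* (0.13) and *RING* (AT4G19700) for *RGL2* (0.135). Among the members themselves *RGL1* and *GID1C* were the most alike, at 0.134, and *GID1C* was the 24th nearest gene to *RGL1*. In both genes the library that stood apart was the lower replicate of Col-0 and of *ref6*. For *GAI* and *GID1A* the root mean square about the gene's own mean (0.183 and 0.161) was less than the difference from the nearest member (0.204 and 0.292). In the other members it was more. *RGA* and *GAI*, the closest pair by sequence, were 0.217 apart, *GAI* ranking 1162nd among the genes nearest to *RGA*.

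Since REF6 is known to bind DNA through zinc fingers, the words CTCTGCTC, CTCTGCTT, CTCTGTTC and CTCTGTTT were searched on both strands from 250 bases before to 50 after each annotated gene start. 1 of the 8 members held a word, *RGL1*, at 37 bases before its start, and 7.9% of the 27443 windows of protein-coding genes did. The stretch, with the word in capitals, is at chr1:24748058-24748085 on the plus strand: tgtaccacggCTCTGCTCttgcttttaa. *RGL1* overlapped Col-0 in *ref6* on both scales. The study describes this insertion as disrupting the zinc fingers, without which REF6 was reported to keep many targets. Binding was not measured here.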

How the data were processed

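RNA from buds of 4 genotypes was sequenced single-end after mRNA enrichment, with 2 libraries per genotype. Per the submitters' processing notes and the study's methods, reads were aligned to TAIR10 with Bowtie2, and RSEM is named. The labels do not say whether a replicate number marks a batch. The authors deposited, per library, the expected count of each gene (an estimate, not scaled) and its FPKM (scaled by length and library total). A gene missing from a table was taken as 0. Strand use and annotation version are not given in the sources used here.

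Expected counts were rounded to whole numbers, filtered with filterByExpr (19939 of 25738 genes kept) and tested with edgeR 4.0.16 (R 4.3.3; TMM, quasi-likelihood, 1 factor of 4 genotypes, 4 residual degrees of freedom), with Benjamini-Hochberg adjustment over all tested genes. Called genes had an adjusted p under 0.05 and at least a 2-fold change. The edgeR test reports no standard error (SE). Those given are the absolute log2 fold change divided by the square root of the test's F statistic. NOISeq, named in the study's methods, was not run. DESeq2 1.42.0, limma 3.58.1 on log2(FPKM + 1) with a minimum mean FPKM of 1, other scalings, filters and sample sets were alternatives. The scripts were tested on simulated data. TPM is FPKM rescaled to a sum of 1000000. Totals were 11373306 to 12048319 counts.

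The members and lists were chosen with earlier results of these data known. Named were all members, every other pathway gene that was called, the gene of each list with the largest change per comparison among those with a mean of at least 50 counts, the most alike gene of each member (log2 CPM with a prior count of 2), and the targeted genes. Exceptions, chosen after their values were seen, are *WRKY33* and the ratios within libraries. Sequences and coordinates come from TAIR10.1 (RefSeq).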

Additional observations from a re-analysis of the deposited data

Results flagged for a closer look

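*GA2OX2* differed between *elf6* and *jmj13* by a log2 fold change of 2.68 (edgeR adjusted p = 0.00927, 2 libraries each), which is the tested difference of their effects against Col-0. It was also higher than Col-0 in both *elf6* libraries and lower in both *jmj13* libraries in TMM CPM, again a gap of 2.68, but in *jmj13* the log2 fold change was 0.0047 by limma on log2(FPKM + 1), so the direction there does not hold under every setting. *RGL3* was lower than both Col-0 libraries in *elf6* and higher in *ref6*, a gap of -1.07 on the log2 scale (*elf6* minus *ref6*), and lower in *jmj13* and higher in *ref6*, a gap of -0.56 (*jmj13* minus *ref6*). These 2 gaps of *RGL3* were not tested, and in TPM the *ref6* and *jmj13* libraries overlapped Col-0.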

How the results depend on the processing

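The count of called members was 0 in the 4 comparisons and became 1, *RGL2*, in *elf6* against Col-0 under DESeq2 and without both libraries that stood apart, and 1, again *RGL2*, in *elf6* against *jmj13* under these and with only the 4 libraries compared. Of the 32 member results (8 genes in 4 comparisons) 19 kept their direction under every alternative and 13 turned under at least 1, of which 0 passed a test. In *jmj13* against Col-0, scaling by library size alone and limma turned *RGA* (0.22 and 0.22), *GAI* (0.28 and 0.28), *RGL1* (0.29 and 0.39), *RGL3* (0.08 and 0.07), *GID1A* (0.27 and 0.28), *GID1C* (0.21 and 0.23) and the targeted gene *JMJ13* (0.32 and 0.23), and limma alone turned *GA2OX2* (0.0047). The same settings turned *MYB101* in *elf6* (0.11 and 0.09) and *RGA* (0.0077 and 0.0077) and *GID1B* (-0.03 and -0.02) in *ref6* against Col-0. Without both libraries that stood apart, *RGL2* (-0.19) and *GID1B* (-0.07) turned in *jmj13*, and *GID1A* (-0.06), *GID1B* (-0.78), *SNE* (-0.13) and *ALC* (0.16) in *ref6*. The cause was not tested, apart from the shift of all genes with the scaling.

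On leaving out 1 library at a time, log2 fold changes that turned ran, in *elf6* against Col-0, from -0.00016 to 0.28 for *GID1A* and from -0.04 to 0.51 for *GA3*. In *jmj13* against Col-0 they ran from -0.50 to 0.0054 for *RGA*, -0.41 to 0.26 for *RGL1*, -0.18 to 0.30 for *RGL2*, -0.05 to 0.19 for *GID1B*, -0.41 to 0.02 for *GID1C* and -0.41 to 0.38 for *JMJ13*. In *ref6* against Col-0 they ran from -0.39 to 0.27 for *RGA*, -0.49 to 0.20 for *RGL1*, -0.66 to 0.50 for *GID1B*, -0.56 to 0.71 for *SNE*, -0.14 to 0.50 for *GA2OX2* and -0.05 to 0.61 for *REF6*. The lone library left in a genotype was assumed to vary like the others.

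The replicate block was fitted although the numbers are not known to mark a batch. The log2 ratios of the 2 replicate numbers correlated across genes at 0.088, 0.015, 0.364 and 0.268 in the 4 comparisons, in the order *elf6*, *jmj13* and *ref6* against Col-0 and *elf6* against *jmj13*. With the replicate block 0 members were called, *GID1B* in *ref6* became -0.02, and the genes called over all genes went from 24, 0, 1 and 154 to 290, 0, 2 and 287. Over all alternatives those counts ranged from 0 to 505, 0 to 265, 0 to 32 and 0 to 746. The standard error in *elf6* against Col-0 was largest for *GID1B*, 0.365, whose counts lay between 72 and 138. It was next largest for *RGL1*, 0.312, whose counts lay between 968 and 2181. For the other members it lay between 0.233 and 0.3, so it did not follow the counts throughout.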
